A study of Mus musculus with 6 samples.

Results

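Cytochrome P450 enzymes and Por, the reductase that supplies most of them with electrons, were followed in RNA from mouse colonic crypts. A gene was taken by its name in the files, which had to be Cyp with a family number, a subfamily letter and a gene number, or Por. It also had to hold at least 10 counts in 3 or more of the 6 libraries, whichever group those libraries came from. Of 94 genes with such a name among the 55487 genes of the files, 37 met the count minimum, namely 36 P450 genes and Por. Cyp51, the sterol demethylase, lies outside the rule and is described further on. All 37 genes were among the 18539 genes tested.

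The libraries held polyadenylated RNA of isolated colonic crypt cells, taken from C57BL/6 mice aged 4 weeks. The 3 control libraries carried the genotype M14(f/f), in which both copies of the gene are flanked by loxP sites and no Cre is named. The 3 mutant libraries carried M14(f/f);Villin-Cre, so both groups share the floxed alleles and the Cre transgene is named in the mutants only. The Villin promoter drives Cre in the epithelium of the gut, and M14 is read here as Mettl14, a subunit of the complex that writes N6-methyladenosine on RNA. Effects of the transgene itself and of the deletion cannot be told apart with these groups. The design text names pairs of mice but no label ties a library to 1 animal, so p-values measure the spread between these libraries.

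P450 enzymes hold a heme and use molecular oxygen to oxidise fat-soluble compounds. Those of the endoplasmic reticulum take electrons from NADPH through Por, sometimes with help from cytochrome b5, and those of mitochondria take them from the ferredoxin Fdx1. Families Cyp1 to Cyp3 are known above all for drugs, pollutants, steroids and arachidonic acid, family Cyp4 for fatty acids and leukotrienes, and the higher-numbered families for sterols, vitamin D, retinoic acid and steroid hormones. In the gut they act on food compounds and on products of the microbes, and many of their genes are switched on by ligand-bound receptors such as the aryl hydrocarbon receptor Ahr, the pregnane X receptor Nr1i2 and the constitutive androstane receptor Nr1i3.

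Library totals ran from 24181631 to 35183636 counts, and 3 counts, the level that a count of 0 allows, came to between 0.0820 and 0.120 counts per 1e+06 counts (CPM). That floor covers counting error only. Mettl14 stood at 26.2, 20.9 and 22.04 CPM in control libraries 1 to 3 and at 14.0, 13.8 and 10.5 CPM in mutant libraries 1 to 3, a fall of 0.85 on the log2 scale. The files count the gene as a whole, with no value for the floxed part alone. Xist was at 652 CPM in mutant 1 and 53.1 CPM in mutant 2, against 1.28 to 1.77 CPM in the other libraries, and the Y-linked Ddx3y was at 0.541 CPM in mutant 1 and between 38.0 and 58.4 CPM elsewhere. The labels give no sex. By these RNAs mutant 1 had a female pattern, and the controls and mutant 3 a male pattern. Mutant 2 held both Xist and Y-linked RNA, as a mixed library would, but the reason was not tested. Sex therefore may differ between the groups, and its part in the results was not tested beyond leaving out mutant 1 and mutant 2. The 12 markers of colon epithelium summed to 20405 to 22707 CPM in controls and 14313 to 16490 CPM in mutants. Of these, 1 rose, 6 fell and 5 were not called. Car1 had the largest part in the lower sum (5613 ± 518 to 2076 ± 273 CPM). The 8 markers of macrophages and dendritic cells summed to 16.9 to 23.2 and 39.2 to 60.1 CPM (7 higher, 1 lower), and the 6 of fibroblasts to 194 to 226 and 84.6 to 102 CPM (4 lower). Summed markers of endothelium (7.81 to 8.68 against 11.4 to 14.4 CPM), T cells (3.62 to 5.23 against 4.95 to 6.88 CPM) and B and plasma cells (0.678 to 0.9498 against 1.12 to 1.88 CPM) were low, none of these markers was at 0 in all 6 libraries, and their part in the results below was not tested. Smooth muscle markers summed to 56.1 to 66.2 and 47.4 to 50.3 CPM, with 3 of 4 lower. The 6 small intestine markers summed to 614 to 917 and 677 to 807 CPM, with Lct, Sis and Slc5a1 lower and Fabp6 higher (2.05 ± 0.478 to 42.03 ± 17.4 CPM). In bulk RNA, fewer cells of a type and less RNA per cell cannot be told apart.

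The promoter of Cyp1a1 is shown first because this gene had the largest difference between genotypes of all 37. Cyp1a1 is the textbook target of Ahr, which binds DNA together with Arnt at sites built around the letters GCGTG. The window runs from 250 bases before to 50 bases after the transcription start given by RefSeq (GRCm38.p6, chr9:57697363-57697662, plus strand), with GCGTG in capitals. That start lies inside the longer gene span of the files' annotation (chr9:57687928-57703824).
Cyp1a1: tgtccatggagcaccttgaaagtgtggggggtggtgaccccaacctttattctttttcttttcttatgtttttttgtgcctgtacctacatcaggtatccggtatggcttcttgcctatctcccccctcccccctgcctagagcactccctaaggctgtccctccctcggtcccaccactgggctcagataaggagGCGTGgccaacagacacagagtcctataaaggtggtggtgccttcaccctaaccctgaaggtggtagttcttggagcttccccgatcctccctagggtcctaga
The GCGTG match begins 54 bases before the start, and a TATAAA match, the core of a TATA box, begins 30 bases before it. Sequence outside this window was not searched, and a match of these letters is no evidence that Ahr binds there.

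Cyp2b10 had the second largest rise and is the textbook target of Nr1i3. Its window (chr7:25897408-25897707, plus strand) is printed for comparison, with GCGTG and its reverse complement in capitals.
Cyp2b10: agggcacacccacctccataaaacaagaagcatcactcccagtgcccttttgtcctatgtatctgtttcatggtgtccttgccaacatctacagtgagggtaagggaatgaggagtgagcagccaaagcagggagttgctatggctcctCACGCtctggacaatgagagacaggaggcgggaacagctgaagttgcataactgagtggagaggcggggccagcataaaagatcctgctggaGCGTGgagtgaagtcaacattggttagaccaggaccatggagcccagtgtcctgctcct
It holds 1 match on the opposite strand, 101 bases before the start, and 1 on the same strand, 9 bases before it. GCGTG belongs to Ahr sites. No site of Nr1i3 was searched for, and neither was sequence outside the window.

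A RefSeq promoter window was found for 30 of the 37 genes. Searched on both strands, GCGTG was in the windows of 12 of these 30 genes (40%), close to the 35.2% of all 27025 genes with a window. By direction, it was found in 2 of 5 genes that rose, 6 of 19 that fell and 4 of 6 that passed in neither direction. TATAAA was in 9 of 30 (30%) against 15.7% of all genes. Apart from Cyp1a1 and Cyp26b1, these 9 were Cyp2c and Cyp2d genes, which are copies within each subfamily and so are not independent cases. On the same strand, the matches of Cyp1a1 and Cyp2c55 began 30 and 29 bases before the start. Those of Cyp2d9, Cyp2d10 and Cyp2d26 lay on the opposite strand. The rest lay 139 to 162 bases before the start or, in Cyp2c69, after it, so the share is no count of TATA boxes. The letters CAAAGTCCA, a form of the site bound by the hepatocyte nuclear factor 4 proteins Hnf4a and Hnf4g, were in 3 of 30 (10%) against 0.555% of all genes. All 3 were Cyp2c genes, which are copies of one another and so are not independent cases.

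The closest match to CAAAGTCCA in each of the 5 Cyp2c promoters is shown in capitals, with 15 bases on each side, because these neighbours include the most abundant P450 transcript of the crypts and none of them rose. The windows lie on chromosome 19 at 39006892-39006930 for Cyp2c55, 39060875-39060913 for Cyp2c65 and 39113779-39113817 for Cyp2c66, all on the plus strand. Those of Cyp2c68 (39741155-39741193) and Cyp2c69 (39886821-39886859) lie on the minus strand.
Cyp2c55: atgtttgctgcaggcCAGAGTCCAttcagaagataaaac
Cyp2c65: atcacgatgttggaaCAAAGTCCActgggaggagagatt
Cyp2c66: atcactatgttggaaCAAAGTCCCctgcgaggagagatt
Cyp2c68: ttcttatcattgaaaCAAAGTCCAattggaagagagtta
Cyp2c69: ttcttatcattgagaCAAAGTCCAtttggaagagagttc
Cyp2c65, Cyp2c68 and Cyp2c69 match in full, 116, 77 and 75 bases before the start. Counted from 1 at the 5′ end of the motif, Cyp2c55 differs by A3G (112 bases before the start) and Cyp2c66 by A9C (104 bases before the start). A match is a description of these letters and no evidence of binding.

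Across the 37 genes, 7 were higher and 21 lower in mutants at an adjusted p under 0.05 by edgeR's quasi-likelihood test with Benjamini-Hochberg adjustment over all tested genes. The remaining 9 did not pass. Among all tested genes 23.5% were higher and 22.8% lower, so the share of P450 genes that fell, 21 of 37, was above the background and the share that rose, 7 of 37, was near it. Falls of more than 2-fold were seen in 14 of the 37, against 6.05% of all tested genes, and rises of more than 2-fold in 4, against 10.5%. The median log2 fold change, mutant minus control, was -0.84 for the 37 genes and 0.01 for all tested genes. Control and mutant libraries did not overlap in 28 of the 37, against 56.9% of all tested genes. Only 2 genes reached 10 counts in all 3 libraries of 1 group and in none of the other, Cyp1a1 in mutants and Cyp4f15 in controls, so these had to differ to be tested. Cyp2b10 and Cyp11a1 reached 10 counts in 3 mutant libraries but only 1 control library, and Cyp4x1 in 3 control libraries but only 1 mutant library. They met the minimum mainly through the group where they were higher, so the rule favoured a difference in them as well. Without mutant 1 and mutant 2, the libraries with Xist RNA, the lone mutant library is assumed to vary like the others. No count of genes that passed is therefore given for that fit, and some calls changed. Log2 fold changes without these libraries are given below for single genes.

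**Figure D1:**
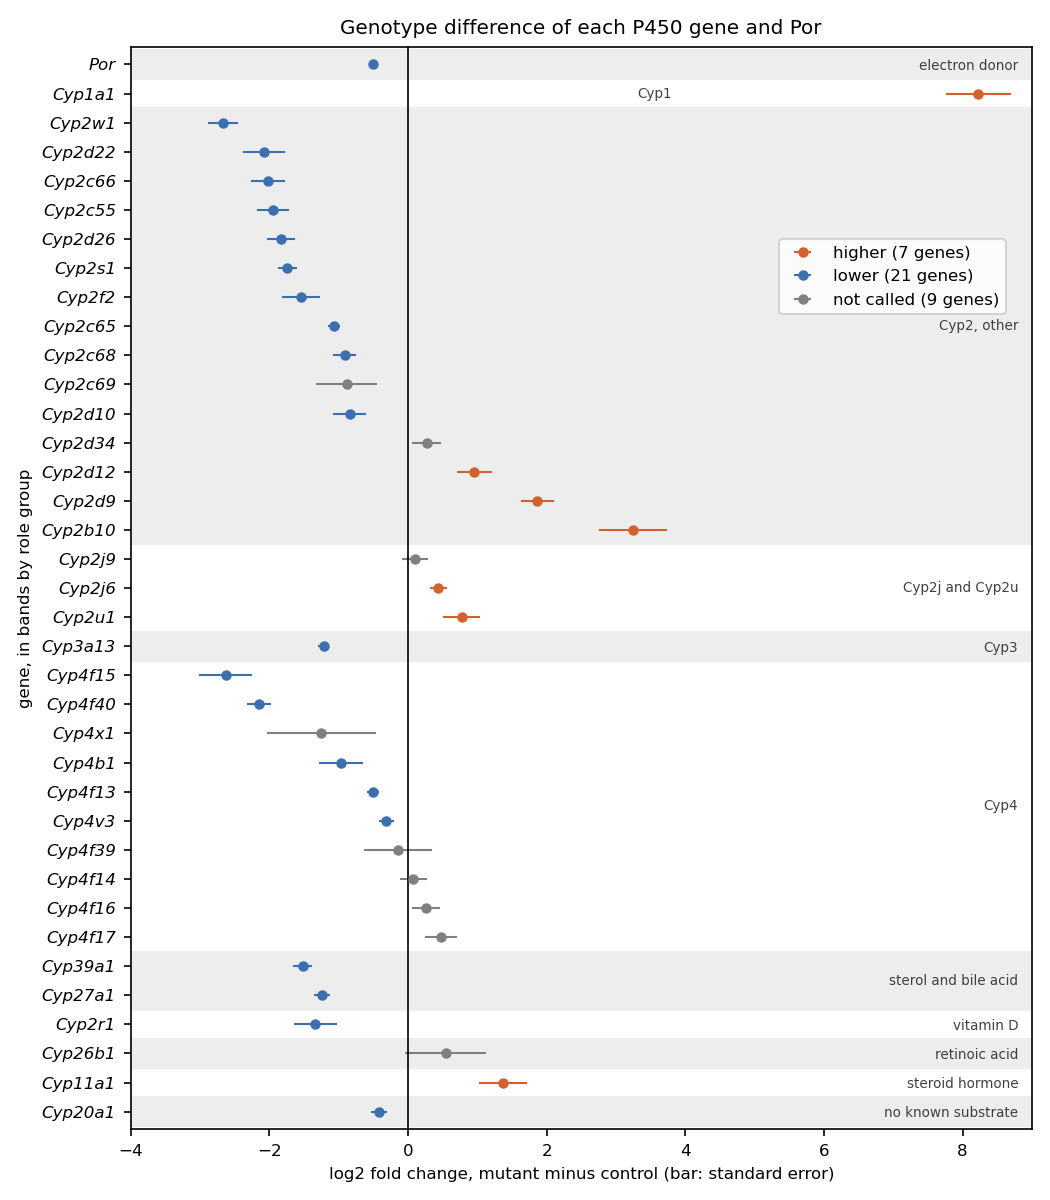
Log2 fold change, mutant minus control, of each P450 gene and Por on the horizontal axis, with genes on the vertical axis in bands by role and bars of 1 standard error (3 libraries per group). Points of 21 genes called lower lie to the left of 0, those of 7 genes called higher to the right, and Cyp1a1 stands apart at 8.23.

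Levels were compared between genes as CPM per kilobase of exon. On that scale Cyp2c55 came first in both genotypes, at 1017 in controls and 265 in mutants, followed by Cyp2c65 at 120 and 57.2. Cyp3a13 (62.1), Por (59.6) and Cyp4f14 (39.4) came next in controls. In mutants Por (42.2) ranked next after the Cyp2c genes, ahead of Cyp4f14 (41.5), Cyp2j6 (33.7), Cyp2d34 (30.5) and Cyp3a13 (26.8). Cyp1a1 was last of the 37 in controls, at 0.00696, and stood 19th in mutants, at 2.59.

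**Figure D2:**
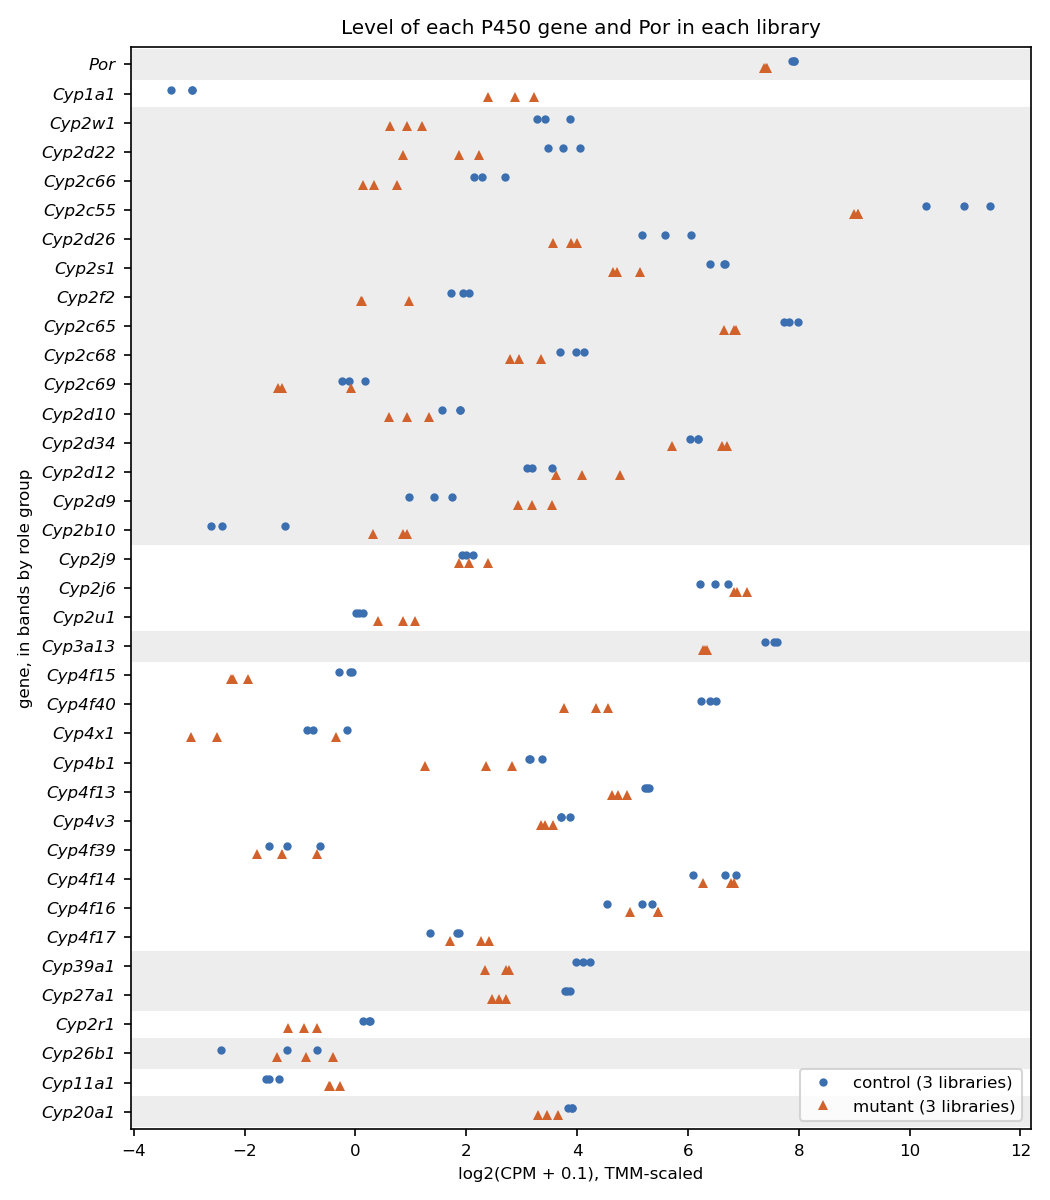
Level of each gene in each library, as log2(CPM + 0.1) on the horizontal axis, with 1 point per library and genes on the vertical axis ordered by role. Cyp2c55 lies farthest to the right in both groups, and the groups of Cyp1a1 are the farthest apart.

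Por, the shared electron donor, was at 234, 242.4 and 242.4 CPM in the controls and at 166, 170.004 and 173 CPM in the mutants. Its libraries lay close together within each genotype and the groups did not overlap. Por fell by 0.50 on the log2 scale (SE 0.067, adjusted p = 2.49e-04). The change was smaller than 1.5-fold, and the fall did not pass a test against a 1.5-fold change (adjusted p = 0.999999).

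Summed over the 36 P450 genes, the level was 3146 ± 663 CPM in controls and 1258 ± 56.4 CPM in mutants (SD, n = 3 per group). The 3 control sums lay between 2459 and 3781 CPM and the 3 mutant sums between 1193 and 1293 CPM. Cyp2c55 alone made up 62.9% ± 11.4 of that sum in controls and 42.0% ± 2.76 in mutants. Leaving out Cyp2c55, the sums were 1117 ± 114 and 731 ± 65.3 CPM, still without overlap. Relative to Por in the same library, P450 RNA stood at 13.1 ± 2.55 CPM per CPM of Por in controls and 7.41 ± 0.213 in mutants. Without Cyp2c55 that ratio was 4.67 ± 0.541 and 4.30 ± 0.327, and the groups overlapped (4.07 to 5.14 against 3.96 to 4.61). The groups were therefore apart in the ratio of P450 RNA to Por RNA only with Cyp2c55 in the sum.

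**Figure D3:**
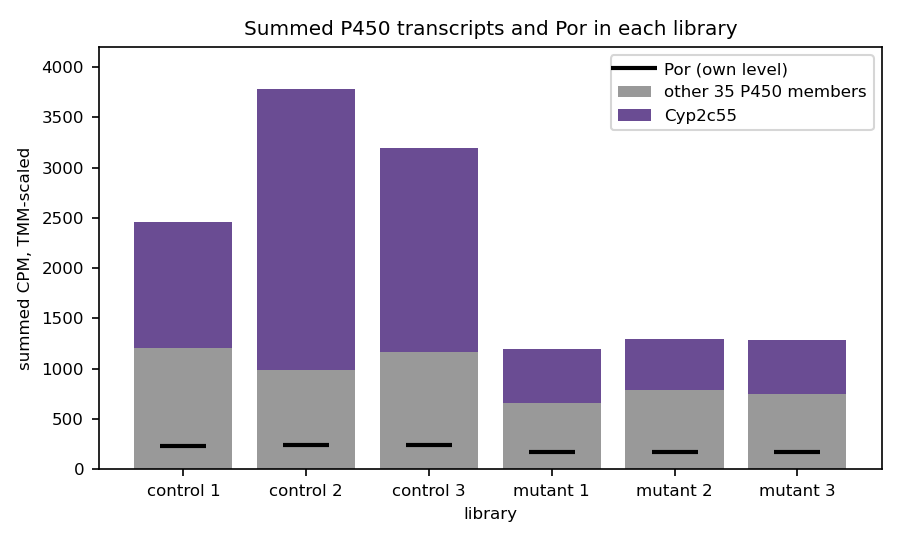
Summed CPM of the 36 P450 genes in each library as stacked bars, with Cyp2c55 above the other 35 genes, and the level of Por as a black line on the same axis. The mutant bars (1193 to 1293 CPM) are all shorter than the control bars (2459 to 3781 CPM), and the Cyp2c55 part differs most between the controls.

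Cyp1a1, which oxidises polycyclic aromatic compounds, was almost without reads in controls, at 0.0285, 0.0297 and 0 CPM. It reached 9.24, 7.24 and 5.17 CPM in the mutants. All 3 mutant libraries were far above all 3 controls, and the gene held the fourth largest rise of all genes tested (log2 fold change 8.23, SE 0.47, adjusted p = 1.43e-06). Cyp1a1 met the count minimum through the mutant libraries alone, so it had to differ to be included, and its p-value and rank are no independent support. The controls together held 2 counts and the mutants 609, a ratio of 347 after scaling for library size (exact 95% interval 95.7 to 2875, counting error only). The fitted fold change depends on the prior count, since the controls lie below the floor. The other members of the Cyp1 family stayed below the count minimum. Cyp1b1 held 0, 0 and 1 counts in controls and 4, 4 and 12 in mutants, a ratio of 22.8 (exact 95% interval 3.65 to 946), and Cyp1a2 held 1, 1 and 0 counts in controls and none in mutants.

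The Cyp2 genes outside Cyp2j, Cyp2r and Cyp2u numbered 15, of which 3 rose, 10 fell and 2 did not pass. Among all tested genes 23.5% were higher and 22.8% lower, so the share of the 15 that rose was near the background. The log2 fold changes of the 15 had a median of -1.07. This is the branch that handles drugs, steroids and arachidonic acid.

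Cyp2c55, an enzyme of arachidonic acid known from the large intestine of the mouse, was at 1257, 2794 and 2037 CPM in controls and at 536, 509 and 538 CPM in mutants. The controls were spread over more than 2-fold and the mutants lay close together, with no overlap. It was 3.84-fold lower in mutants (log2 fold change -1.94, SE 0.24, adjusted p = 1.33e-04). Cyp2c65, which also acts on arachidonic acid in the gut, was at 226, 214 and 252 CPM in controls and 117, 99.8 and 114 CPM in mutants, a 2.09-fold fall with tight groups (adjusted p = 1.69e-05). Cyp2c66 was far scarcer, at 6.36, 4.78 and 4.29 CPM in controls and 1.005, 1.16 and 1.59 CPM in mutants, and was 4.06-fold lower. Cyp2c68 was at 15.7, 12.8 and 17.4 CPM in controls and 7.61, 10.1 and 6.81 CPM in mutants, 1.88-fold lower. Its groups came closest between control 2 and mutant 2 but did not overlap. Cyp2c69 ranged from 0.742 to 1.03 CPM in controls and from 0.280 to 0.850 CPM in mutants, where mutant 1 lay inside the control range, and it did not pass (log2 fold change -0.88, adjusted p = 0.13). Without mutant 1 it passed as lower (-1.56, adjusted p = 0.0111).

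The 5 Cyp2c genes lie within 880 kb of chromosome 19 (39007019-39886799, GRCm38), and all 5 had log2 fold changes below 0. Of all 18539 tested genes, 9189 were below 0. The Cyp2c genes are near copies, and reads that fit several genes were not counted. Of the 50-base stretches in their transcripts, 54.3% in Cyp2c69, 43.3% in Cyp2c68, 20.7% in Cyp2c65 and 19.5% in Cyp2c66 also occur in another gene's transcripts, so values of these 4 are uncertain. For Cyp2c55 the share was 0.514%.

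The 6 Cyp2d genes, relatives of the main human drug-oxidising enzyme of that subfamily, went both ways within 424 kb of chromosome 15 (82370527-82794294). Cyp2d22 was at 10.99, 16.6 and 13.4 CPM in controls and 3.56, 4.60 and 1.72 CPM in mutants, a 4.22-fold fall (log2 fold change -2.08, SE 0.301, adjusted p = 4.13e-04) with mutant 3 lowest. Without mutant 1 and mutant 2 its log2 fold change was -2.98. Cyp2d26 was at 66.0, 35.8 and 47.9 CPM in controls and 15.8, 14.8 and 11.8 CPM in mutants, 3.55-fold lower, and its lowest control stood above its highest mutant. Cyp2d10 fell from 3.34 ± 0.427 to 1.88 ± 0.493 CPM (adjusted p = 0.0160), a call lost without control 1 (adjusted p = 0.0502), control 3 (adjusted p = 0.0520) or mutant 3 (adjusted p = 0.0570).

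In the same stretch Cyp2d9, a testosterone hydroxylase known for higher levels in male liver, rose. It was at 1.85, 3.26 and 2.58 CPM in controls and 7.499, 11.6 and 8.997 CPM in mutants, 3.65-fold higher (log2 fold change 1.87, SE 0.24, adjusted p = 1.78e-04) with no overlap. Without mutant 1 and mutant 2 its log2 fold change was 1.81 (adjusted p = 0.00201). Cyp2d12 was at 8.96, 8.49 and 11.6 CPM in controls and 12.1, 27.2 and 16.95 CPM in mutants. Mutant 1 lay just above control 3, mutant 2 was highest, and the gene was 1.94-fold higher (adjusted p = 0.0121). Cyp2d34 ranged from 65.4 to 72.9 CPM in controls and stood at 52.6 CPM in mutant 1 but 104 and 97.95 CPM in mutants 2 and 3. It did not pass (log2 fold change 0.27, adjusted p = 0.31). It passed as higher without mutant 1 (0.52, adjusted p = 5.51e-04), without mutant 1 and mutant 2 (0.48, adjusted p = 0.00627) and, with all 6 libraries, when no filter on low counts was used (0.23, adjusted p = 0.0449). In chromosome order the 6 genes are Cyp2d22, Cyp2d10, Cyp2d9, Cyp2d12, Cyp2d34 and Cyp2d26, so the 2 that rose lie next to each other in that order. Cyp2d10 and Cyp2d9 are uncertain, since 35.8% and 21.8% of their 50-base stretches occur in other genes, and 3.64% and 9.26% of their exon bases overlap another gene on the same strand.

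**Figure D4:**
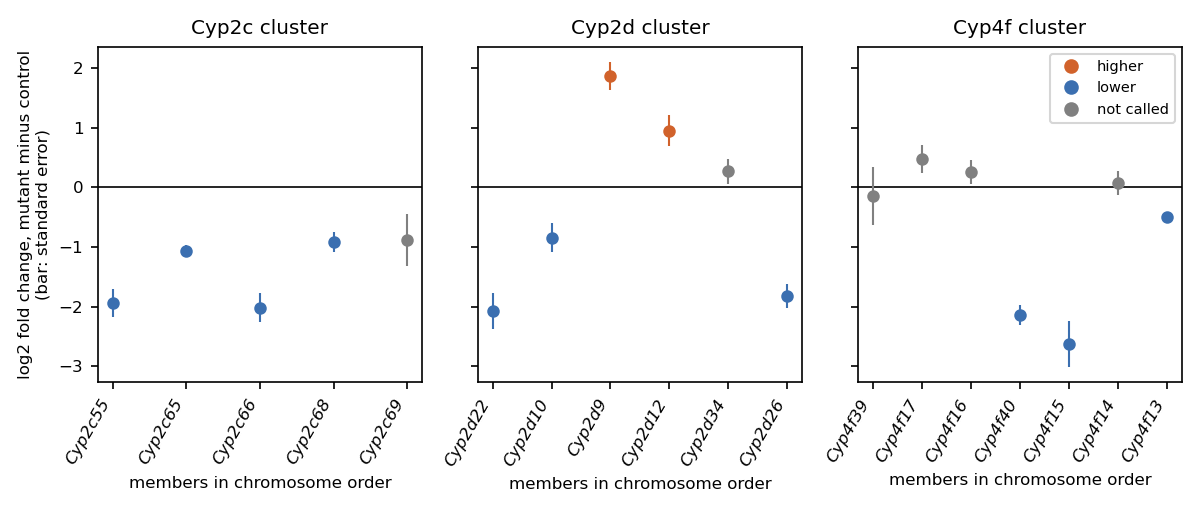
Log2 fold change, mutant minus control, of the Cyp2c, Cyp2d and Cyp4f genes in chromosome order, 1 point per gene with bars of 1 standard error and coloured by call. All 5 Cyp2c genes lie below 0, while the Cyp2d genes range from -2.08 to 1.87 and the Cyp4f genes from -2.63 to 0.48.

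Among the other Cyp2 genes, Cyp2w1, an enzyme known from fetal colon and colon tumours, was at 14.6, 9.56 and 10.6 CPM in controls and 2.20, 1.44 and 1.81 CPM in mutants. It had the steepest fall of the 37 genes, 6.35-fold (log2 fold change -2.67, SE 0.22, adjusted p = 1.30e-05), with no overlap. Cyp2s1, an epithelial enzyme known to be inducible through Ahr, was at 101, 84.2 and 102 CPM in controls and 24.97, 34.98 and 26.2 CPM in mutants. It was 3.34-fold lower (log2 fold change -1.74, SE 0.13, adjusted p = 8.30e-06), in the opposite direction to Cyp1a1. The activity of Ahr was not measured, and its part in either change was not tested. Cyp2f2, known for naphthalene oxidation in the airways, fell from 3.65 ± 0.421 to 1.26 ± 0.4998 CPM (adjusted p = 0.00137). Cyp2b10 rose from 0.314, 0.0890 and 0.0645 CPM in controls to 1.70, 1.80 and 1.15 CPM in mutants (log2 fold change 3.24, SE 0.49, adjusted p = 5.37e-04). Its controls held 11, 3 and 2 counts, and without control 1 the log2 fold change was 4.25.

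Cyp2j and Cyp2u enzymes oxidise polyunsaturated and long-chain fatty acids. All 3 had log2 fold changes above 0 and 2 rose, the smallest of the rises. Of all 18539 tested genes, 9350 were above 0 and 4354 rose. Cyp2j6 was at 106, 74.5 and 89.3 CPM in controls and 113, 118 and 133 CPM in mutants, 1.35-fold higher (adjusted p = 0.0155). Control 1 came close to the mutants, and leaving out mutant 3 ended the call (adjusted p = 0.0588). Cyp2u1 rose from 0.951 ± 0.0476 to 1.64 ± 0.388 CPM (adjusted p = 0.0379). That call was lost without any 1 library except mutant 3, with adjusted p between 0.0706 and 0.135. It was also lost with DESeq2 (adjusted p = 0.0609), with limma-voom (adjusted p = 0.0548), with all genes kept whatever their counts (adjusted p = 0.0771) and without mutant 1 and mutant 2 (adjusted p = 0.48). Cyp2j9 ranged from 3.71 to 4.26 CPM in controls and 3.56 to 5.14 CPM in mutants and did not pass (log2 fold change 0.11, adjusted p = 0.67).

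Cyp3a13 was the only Cyp3 gene above the count minimum. This family oxidises drugs and steroids, and Cyp3a11, its main liver member, held 2 to 5 counts per library. Cyp3a13 was at 195, 168 and 188 CPM in controls and 79.3, 81.0 and 77.1 CPM in mutants. The mutant libraries were almost alike and lay far below the controls (2.32-fold lower, log2 fold change -1.21, SE 0.078, adjusted p = 3.04e-06). None of its 50-base stretches occurs in another gene.

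Of the 10 Cyp4 genes above the count minimum, 5 fell, 5 did not pass and none rose. Among all tested genes 22.8% were lower and 23.5% higher. Cyp4 enzymes hydroxylate the far end of fatty acids, and several Cyp4f members inactivate leukotrienes this way. Cyp4f40 was at 90.5, 75.6 and 84.8 CPM in controls and 20.2, 23.5 and 13.4 CPM in mutants, a 4.41-fold fall with no overlap (log2 fold change -2.14, SE 0.17, adjusted p = 1.23e-05). Cyp4f15 fell more, from 0.802 ± 0.0785 to 0.128 ± 0.0276 CPM (log2 fold change -2.63, adjusted p = 4.23e-04), but rests on 24 to 30 counts per control and 3 to 4 per mutant. It met the count minimum through the controls alone, so it had to differ to be included. Cyp4f13 was at 39.5, 38.4 and 37.1 CPM in controls and 24.7, 26.5 and 29.8 CPM in mutants, 1.42-fold lower.

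Cyp4f14, a leukotriene hydroxylase and the most abundant Cyp4 transcript per kilobase, was at 116, 68.4 and 101 CPM in controls and 76.9, 115 and 109 CPM in mutants. All 3 mutants lay within the control range and it did not pass (log2 fold change 0.08, SE 0.19, adjusted p = 0.78). Cyp4f16 ranged from 23.0 to 40.7 CPM in controls and 30.8 to 44.1 CPM in mutants, and 17.4% of its 50-base stretches occur in other genes. Cyp4f17 ranged from 2.43 to 3.55 and 3.17 to 5.20 CPM. Neither passed, at adjusted p of 0.32 and 0.12, though Cyp4f17 passed as higher without mutant 1 (adjusted p = 0.0332). Cyp4f39, which acts on very long fatty acids of the skin barrier, ranged from 0.237 to 0.542 and 0.193 to 0.520 CPM and did not pass (log2 fold change -0.14, adjusted p = 0.83). In the 495 kb of chromosome 17 that hold the 7 Cyp4f genes (32452723-32947402), the order is Cyp4f39, Cyp4f17, Cyp4f16, Cyp4f40, Cyp4f15, Cyp4f14 and Cyp4f13. The 2 steepest falls are neighbours in that order and lie between genes that did not pass.

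Cyp4b1, an enzyme of shorter fatty acids, was at 10.2, 8.64 and 8.74 CPM in controls and 6.996, 5.002 and 2.30 CPM in mutants. Mutant 3 was lowest and the groups did not overlap (1.95-fold lower, adjusted p = 0.0307). The call was lost without any 1 control (adjusted p 0.0556 to 0.0899) or without mutant 2 (adjusted p = 0.0566), and the log2 fold change was -1.998 without mutant 1 and mutant 2. Cyp4v3, the counterpart of a human gene of inherited retinal disease, was at 12.98, 12.9 and 14.6 CPM in controls and 11.8, 10.1 and 10.6 CPM in mutants. Its fall of 0.32 on the log2 scale was the smallest that passed (adjusted p = 0.0364). It was lost without any 1 library except mutant 1 (adjusted p 0.0550 to 0.152), with library totals as the only scaling (adjusted p = 0.0888) and with DESeq2 (adjusted p = 0.0528). Of the exon bases of Cyp4v3, 8.22% overlap another gene on the same strand, and 7.02% of its 50-base stretches occur in another gene's transcripts. Cyp4x1, known from brain, was at 0.799, 0.445 and 0.484 CPM in controls and 0.0773, 0.680 and 0.0273 CPM in mutants. Mutant 2 lay inside the control range while the other mutants lay below it, and the gene did not pass (log2 fold change -1.25, adjusted p = 0.22). It passed as lower without mutant 2 (-3.47, adjusted p = 0.00383), without mutant 1 and mutant 2 (-4.23, adjusted p = 0.0128), and with all 6 libraries by limma-voom (-2.17, adjusted p = 0.0481) or with the low-count filter left off (-1.28, adjusted p = 0.0462). Without mutant 3 the log2 fold change was -0.62.

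Both genes of sterol and bile acid oxidation fell, beside 22.8% of all tested genes. Cyp27a1, the mitochondrial sterol side-chain hydroxylase, was at 13.7, 14.0 and 14.6 CPM in controls and 5.41, 5.92 and 6.45 CPM in mutants. It was 2.37-fold lower with narrow groups (log2 fold change -1.25, SE 0.12, adjusted p = 2.70e-05). Cyp39a1, an oxysterol hydroxylase, was at 18.7, 15.7 and 17.1 CPM in controls and 6.46, 6.68 and 4.95 CPM in mutants, 2.86-fold lower (log2 fold change -1.52, SE 0.14, adjusted p = 2.50e-05). Neither shares a 50-base stretch with another gene.

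Single genes stand for vitamin D, retinoic acid, steroid hormones and the orphan Cyp20a1. Cyp2r1, which makes the first hydroxylated form of vitamin D, was at 1.08, 1.10 and 1.0002 CPM in controls and 0.425, 0.520 and 0.328 CPM in mutants, 2.53-fold lower (adjusted p = 0.00576). Cyp27b1 and Cyp24a1, which complete and end vitamin D activation, held at most 8 and 11 counts in a library. Cyp26b1, which clears retinoic acid, was at 0.0856, 0.326 and 0.516 CPM in controls and 0.657, 0.440 and 0.273 CPM in mutants, overlapping groups that did not pass (adjusted p = 0.48). Its log2 fold change of 0.55 turned to -0.15 without mutant 1 and mutant 2.

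Cyp11a1, the mitochondrial enzyme that opens steroid hormone synthesis by cutting the cholesterol side chain, was at 0.285, 0.237 and 0.226 CPM in controls and 0.618, 0.720 and 0.629 CPM in mutants. It rose 2.59-fold without overlap (adjusted p = 0.00870), from 7 to 10 counts per control to 16 to 23 per mutant, and did not pass without mutant 1 and mutant 2 (adjusted p = 0.0952). Of its exon bases, 3.02% overlap another gene on the same strand. Cyp20a1, whose substrate is not known, was at 14.1, 14.9 and 14.97 CPM in controls and 10.9, 12.5 and 9.68 CPM in mutants, 1.33-fold lower (adjusted p = 0.0139). Without control 3 (adjusted p = 0.0527) or mutant 3 (adjusted p = 0.0526) it no longer passed.

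Below the count minimum were 57 genes with a P450 name, 47 of them with fewer than 10 counts in every library. Nearest to it were 5 genes with at least 10 counts in 2 libraries, Cyp2a5, Cyp2c38, Cyp2j13, Cyp2j8 and Cyp4f18. Cyp2a5, known for nicotine and coumarin oxidation, held 5, 0 and 1 counts in controls and 58, 24 and 8 in mutants. Cyp4f18, a leukotriene enzyme of white blood cells, held 8, 3 and 4 counts in controls and 9, 15 and 14 in mutants. It was the 1 gene outside the minimum that was tested, and it passed as higher (log2 fold change 1.53, adjusted p = 0.0261). Just inside the minimum, with 3 libraries at 10 counts or more, were Cyp1a1 and Cyp4f15.

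The other genes of P450 action were read from lists of pathway genes. Of 9 redox partners, 3 fell and none rose, beside 22.8% lower and 23.5% higher among all tested genes. They were Fdx1, the ferredoxin of mitochondrial P450s (14.9 ± 2.11 to 11.6 ± 1.08 CPM), and the cytochromes b5 Cyb5b (309 ± 16.3 to 252 ± 25.6 CPM) and Cyb5a (117 ± 6.20 to 100.01 ± 1.94 CPM). Their log2 fold changes were -0.36, -0.30 and -0.22, each smaller than that of Por.

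Of 13 genes of heme synthesis and breakdown, 3 rose and 4 fell, shares near the 23.5% higher and 22.8% lower of all tested genes. Alas1, the rate-limiting enzyme of heme synthesis outside red cells, was at 160.5, 217 and 184 CPM in controls and 105, 115 and 111 CPM in mutants (log2 fold change -0.76, SE 0.11, adjusted p = 3.20e-04). Fech, which inserts the iron, fell from 54.3 ± 0.579 to 41.7 ± 0.676 CPM. Hmox1, the inducible enzyme that breaks heme down, was at 4.62, 2.43 and 3.23 CPM in controls and 11.2, 11.3 and 10.9 CPM in mutants (log2 fold change 1.69, SE 0.21, adjusted p = 1.54e-04). Hmox1 is also high in macrophages, whose summed markers rose as given above, and their part in its rise was not tested.

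Of 21 receptors and partners that control P450 genes, 20 were tested, with 16 lower, 1 higher and a median log2 fold change of -0.58, beside the 22.8% lower and 0.01 of all tested genes. Hnf4g, a hepatocyte nuclear factor, was at 46.2, 46.7 and 43.9 CPM in controls and 14.1, 16.3 and 12.6 CPM in mutants (log2 fold change -1.68, SE 0.099, adjusted p = 1.80e-06). Vdr, the vitamin D receptor, fell from 457 ± 24.9 to 170 ± 18.7 CPM, and the fatty acid receptor Ppard from 238 ± 8.63 to 139 ± 9.17 CPM. The gene that rose was Ahr, at 19.6, 16.4 and 17.4 CPM in controls and 27.2, 24.9 and 28.3 CPM in mutants (log2 fold change 0.59, SE 0.094, adjusted p = 7.16e-04). The receptors that follow are named because they act on P450 genes described above, and they were picked after values were seen. Arnt, the partner of Ahr, fell from 58.4 ± 4.79 to 37.3 ± 2.51 CPM while Cyp1a1 rose. Nr1i3 fell from 2.18 ± 0.519 to 0.558 ± 0.0755 CPM while Cyp2b10 rose, and Nr1i2 from 77.5 ± 3.29 to 55.4 ± 6.59 CPM. Hnf4a fell from 723 ± 36.7 to 460 ± 29.0 CPM. Whether the RNA of any of these receptors bears on that of the P450 genes was not tested.

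Of 6 targets of Ahr outside the family, 5 were tested, and 1 rose, 1 fell and 3 did not pass, shares near those of all tested genes (23.5% higher, 22.8% lower). Tiparp, which damps Ahr, was at 18.6, 18.7 and 17.4 CPM in controls and 24.9, 25.4 and 31.6 CPM in mutants (log2 fold change 0.59, SE 0.10, adjusted p = 0.00137). Ugt1a6a, a glucuronidation enzyme, went the other way, at 16.9, 17.7 and 18.8 CPM against 10.9, 7.20 and 7.25 CPM (log2 fold change -1.08, SE 0.16, adjusted p = 4.37e-04). It shares exons with the other Ugt1a genes, so its counts are uncertain. Ahrr, the repressor of Ahr, ranged from 0.171 to 0.445 and 0.271 to 0.480 CPM and did not pass (adjusted p = 0.63).

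Among 14 enzymes that share substrates or products with P450s, 13 were tested, with 3 higher and 6 lower, beside 23.5% and 22.8% of all tested genes. Rdh10, which makes the precursor of retinoic acid, rose from 20.8 ± 1.02 to 40.1 ± 4.56 CPM (log2 fold change 0.95). Hpgd, which inactivates prostaglandins, fell from 161 ± 22.7 to 82.5 ± 5.27 CPM (-0.97). Ptgs2, the inducible cyclooxygenase that competes with P450s for arachidonic acid, rose from 0.209 ± 0.0416 to 1.05 ± 0.240 CPM (2.30). Cyp51, the P450 of cholesterol synthesis, belonged to this list and fell from 134 ± 3.23 to 99.2 ± 7.58 CPM (log2 fold change -0.44, adjusted p = 0.00121), a change close to that of Por.

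**Figure D5:**
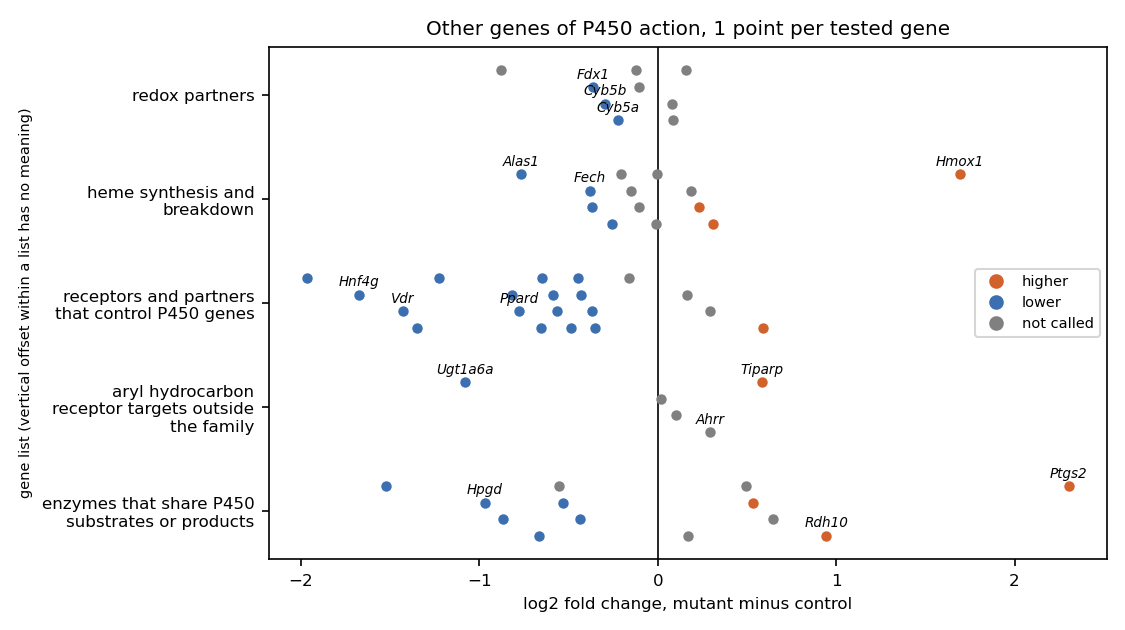
Log2 fold change, mutant minus control, of each tested gene in 5 lists of other genes of P450 action, coloured by call, with the vertical offset for legibility only. Most receptors lie to the left of 0 (16 of 20 lower), with Ahr as the 1 that rose.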

How the data were processed

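Polyadenylated RNA was sequenced in 3 control and 3 mutant libraries. The deposited files hold raw counts of fragments per gene. The submitters' processing notes name Trim Galore 0.6.5, STAR 2.6.1d and the build GRCm38. The authors counted with featureCounts 1.6.4 on GENCODE vM25, by strand, per the file headers. Those headers set no option for reads with more than 1 alignment, or on more than 1 gene, which the tool then leaves uncounted. Near-identical copies can lose reads that way.

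The fit used edgeR 4.0.16 in R 4.3.3, with filterByExpr (minimum count 10, minimum total 15), TMM scaling, and the quasi-likelihood F test with genotype as the only term, 2-sided, Benjamini-Hochberg adjusted over 18539 genes, threshold 0.05. The fitting was tested on simulated data in which far fewer genes differed than were called here. Its error rates with so many changed genes were therefore not tested. CPM values are TMM-scaled, and means carry the SD over 3 libraries. Alternatives were other scalings and filters, DESeq2 1.42.0, limma 3.58.1 (voom), a null of 1.5-fold, a threshold of 0.01, a block on the replicate number, each library left out, and, chosen after seeing the data, mutant 1 and mutant 2 left out together.

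Genes and lists were chosen with earlier results of these data known. Every P450 gene above the minimum is named. Values in all 6 libraries are given for Por, for genes that passed and averaged at least 5 CPM in either group and for the most abundant gene per kilobase in each role. Up to 3 genes of smallest p are named from each pathway list. Other genes and library values were picked after their values were seen. The list name Fdx1l was read as Fdx2, its name in the files. Shared stretches were counted on GENCODE vM21 transcripts and promoters come from RefSeq (GRCm38.p6). Protein sequences were not used here.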

Additional observations from a re-analysis of the deposited data

How the results depend on the processing

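Scaling by library totals, RLE or upper quartile, no filter, and a filter of 10 counts in 3 libraries each gave 7 genes higher and between 20 and 22 lower. DESeq2 gave 6 and 20, and limma-voom 6 and 22. Of all 18539 genes tested, library totals gave 4881 higher and 3389 lower, RLE 4372 and 4207, and upper quartile 4237 and 4357. DESeq2 gave 4161 and 4008 of them, and limma-voom 4375 and 4273. With no filter 4742 were higher and 4632 lower of 43508, and with the filter of 10 counts 4324 and 4180 of 18376. A stricter filter (minimum 50), which tested 28 of the 37, gave 4 higher and 19 lower, beside 3790 and 3602 of all 13274 genes tested. A threshold of 0.01 gave 4 and 17, beside 3051 and 2824 of all 18539, and a null of 1.5-fold gave 3 and 14. Under that null 2747 of all genes were called (1720 higher, 1027 lower), against 8589 (4354 and 4235) with no such null, and Por, at -0.50, did not pass (adjusted p = 0.999999). Leaving out 1 library gave 6 to 8 genes higher and 17 to 22 lower, 6935 to 8350 of all genes called, and -0.51 to -0.48 for Por. Without mutant 1 and mutant 2 Por was at -0.47. Genes that did not pass and changed sign were Cyp2j9 (main 0.11, leaving out 1 library -0.0497 at the lowest and 0.21 at the highest), Cyp4f14 (0.08, -0.12 to 0.24), Cyp4f39 (-0.14, -0.54 to 0.26) and Cyp26b1 (0.55, and -0.15 without mutant 1 and mutant 2), and the cause was not tested. With the replicate number as a block, 6 genes were higher and 20 lower, the calls of Cyp2u1 (adjusted p = 0.0720) and Cyp4v3 (adjusted p = 0.0702) were lost, 7403 of all genes were called, and Por was at -0.50. Libraries of the same number did not deviate together (correlations of -0.120, -0.0652 and -0.138 over genes). With 3 libraries per group, such values cannot show whether the numbers pair the samples. Genes under about 1 CPM rest on few counts, and the scarcest of them come near or below the floor of 3 counts (0.0820 to 0.120 CPM).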
